A study of Mus musculus with 9 samples.

Results

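RNA was sequenced from B cells isolated from the spleens of 3 Eµ-MTCP1 mice with leukemia and 3 wildtype mice, and the comparison of these groups takes up 6 of the 9 libraries in the series. The other 3 libraries came from Eµ-TCL1 mice, which carry a human TCL1A transgene and serve here as a second leukemia model. Members of each group were taken from the genotype given in the sample labels, and all mice were C57/BL6NTac animals. In Eµ-MTCP1 mice a VH promoter and the immunoglobulin heavy chain Eµ enhancer drive human MTCP1 in B cells, and the wildtype mice carry no transgene. Per the study's methods the Eµ-MTCP1 mice descend from 1 founder line, in which the transgene lies in an intron of the mouse gene Fam168a, so that effects of MTCP1 and of the insertion cannot be told apart in this line. The ages of the animals are not given in the sources used here, and age and leukemia cannot be told apart from genotype.

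MTCP1 and TCL1A belong to a family of small proteins that bind the kinase AKT and raise its activity. Chronic lymphocytic leukemia (CLL) is a cancer of mature B cells that express the surface protein CD5 and depend on signals from the B-cell receptor. In the mouse, CD5 is carried by B1 cells, an innate-like B-cell subset that makes much of the natural antibody, whereas follicular B cells, the main subset of the spleen, express CD23 (Fcer2a), CD21 (Cr2) and surface IgD. Leukemias that arise under the TCL1A transgene are expansions of CD5-bearing B cells.

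Each library held between 6447542 and 8033303 reads assigned to genes. Mitochondrial transcripts took between 2.91 and 10.8% of reads, ribosomal protein transcripts between 9.22 and 18.8%, and immunoglobulin transcripts between 3.39 and 15.6%. 8 of the 9 libraries shared a sequencing lane per the labels, and wildtype mouse Z2755 was run on another lane. Gene levels are given as reads of the gene per 1000000 reads after normalization (CPM), in the order Z2641, Z2606 and Z2551 for Eµ-MTCP1 mice, Z2785, Z2755 and Z2754 for wildtype mice, and C1594, B4437 and B4376 for Eµ-TCL1 mice. Fold changes are on the log2 scale with their standard error, and a gene was called higher or lower where its Benjamini-Hochberg adjusted p from the edgeR quasi-likelihood test was under 0.05. Nothing in the labels says more of the replicates than that they are separate mice, and n was 3 in every group.

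Pan-B-cell markers summed to between 11600 and 13300 CPM in Eµ-MTCP1 mice and between 10800 and 12200 CPM in wildtype mice, and none of the 10 tested passed the test (median log2 fold change 0.03). Neutrophil markers summed to 2780 CPM in Z2641, 164 in Z2606 and 168 in Z2551, against 368 in Z2785, 5000 in Z2755 and 442 in Z2754. One library in each group therefore stood apart for these genes, and none of the 9 neutrophil markers tested was called. T-cell markers were also not called in any of 8 genes tested, and most of their sum came from Cd2, which B cells express. Among 13 macrophage and monocyte markers Cd68 was the only one called, and it was higher (log2 fold change 2.06, edgeR adjusted p = 0.00316). Cd68 stood at 177, 172 and 323 CPM against 68.3, 56.2 and 36.1 CPM, while the median log2 fold change of the list was -1.04. NK-cell markers summed to between 24.8 and 25.3 CPM in Eµ-MTCP1 mice and between 46.1 and 83.2 CPM in wildtype mice, without overlap, and none of 7 tested was called (median log2 fold change -1.46). Dendritic cell markers summed to between 30.2 and 87.6 CPM against 61.1 to 112 CPM, and none of 7 tested was called (median log2 fold change -1.80). The part of these cell types in the lower genes described here was not tested. Y-linked transcripts were at or under 0.165 CPM in Eµ-MTCP1 mouse Z2641 and wildtype mouse Z2785, and between 16.2 and 214 CPM in the other 4 mice of these groups, so that each group held 1 mouse with almost no Y-linked signal.

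The transgene transcript marked the labelled mice. Human MTCP1 stood at 288, 687 and 619 CPM in the Eµ-MTCP1 mice, whereas each wildtype library held 3 reads of it. No value of one group came near the other, and against a floor of 3 reads in each library the transcript was at least 1380-fold higher (log2 fold change 10.39 ± 0.55, edgeR adjusted p = 2.65e-05). Human TCL1A reads numbered between 10 and 18 in the Eµ-MTCP1 libraries and between 3 and 11 in the wildtype libraries, against 26439 to 47437 in Eµ-TCL1 libraries. Mouse Mtcp1, the endogenous gene, had 3, 10 and 9 reads in Eµ-MTCP1 mice and 3, 3 and 1 in wildtype mice, too few to be tested. Cmc4, which shares its locus with Mtcp1 and encodes a mitochondrial protein, was at 0.826, 1.28 and 0.820 CPM against 1.96, 1.74 and 2.85 CPM, and was not called (log2 fold change -1.14 ± 0.61, edgeR adjusted p = 0.275). Mouse Tcl1 and Tcl1b1 to Tcl1b5 had 0 reads in all 9 libraries, which allows at most 3 reads per library by counting error alone.

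Of 11163 genes tested, 613 (5.49%) were higher in Eµ-MTCP1 than in wildtype B cells and 446 (4.0%) were lower, together 9.49%. Immunoglobulin segments made up 146 of the lower genes and none of the higher, so that 300 other genes were lower. The called genes changed by a median of 2.03 on the log2 scale without regard to sign, and the smallest called change was 0.56. Requiring an unadjusted p under 0.001 with a log2 change beyond 2 left 189 higher (1.69%) and 195 lower (1.75%). Values of the 2 groups did not overlap in 3342 genes (29.9%), among them 1055 of the 1059 called. The split of directions depended on scaling: with library size alone in place of TMM factors, 391 genes were higher and 731 lower, and the median log2 fold change of all genes moved from -0.02 to -0.26. Without wildtype mouse Z2755 there were 567 calls, without Z2754 525 and without Eµ-MTCP1 mouse Z2551 599.

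The most strongly raised genes were nearly silent in wildtype B cells. Gnb3, a G-protein beta subunit, stood at 235, 1110 and 605 CPM in Eµ-MTCP1 mice against 0.604, 0.434 and 0.124 CPM in wildtype mice (log2 fold change 10.68 ± 1.16, edgeR adjusted p = 0.000478). Gng13, which encodes a G-protein gamma subunit, was at 51.0, 58.8 and 30.4 CPM and at the floor in wildtype mice, at least 122-fold higher. Fras1, an extracellular matrix protein, was at 188, 131 and 191 CPM against 2.12, 0 and 0 CPM (log2 fold change 8.07 ± 1.25, edgeR adjusted p = 0.00304). Its wildtype reads were all in Z2785, and without that library the fitted log2 fold change was 13.29, against libraries with no reads, so that its size is not fixed by these data. For Gnb3, Gng13 and Fras1 the lowest Eµ-MTCP1 mouse was far above the highest wildtype mouse. Mcc, Sparc, Olfml2a, Myl9, Acacb, Sostdc1 and Ephb4 were also absent or at the floor in every wildtype library and stood between 1.65 and 123 CPM in the single Eµ-MTCP1 mice. Togaram2 was at 8.42, 117 and 9.84 CPM against at most 0.326 CPM, so that Z2606 held most of its signal. Its log2 fold change was 8.32, and 6.0 without Z2606, and its call was lost without Z2754. Krt8, a keratin, spanned 36, 1550 and 71.9 CPM, the widest spread of these genes, against at most 1.06 CPM in wildtype mice, and it lost its call without Z2755 or without Z2754. Its log2 fold change was 10.03, and 6.64 without Z2606.

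Among the genes that fell furthest, Stat4, a transcription factor of the interleukin-12 pathway, was at 0.165, 0.994 and 0.984 CPM in Eµ-MTCP1 mice against 34.1, 38.2 and 48.6 CPM in wildtype mice (log2 fold change -5.77 ± 0.53, edgeR adjusted p = 0.00026). Satb1, which organizes chromatin in lymphocytes, was at 5.45, 3.27 and 4.10 CPM against 85.2, 128 and 97.9 CPM (log2 fold change -4.60 ± 0.79, edgeR adjusted p = 0.00535). Lrrk2, a kinase expressed by B cells, was at 2.31, 13.6 and 20.5 CPM against 277, 279 and 337 CPM (log2 fold change -4.61 ± 0.87, edgeR adjusted p = 0.00878). No Eµ-MTCP1 value of these genes reached a wildtype value. Nlrc3, Smad7, Tmem108, Ccr6 and Gpr171 fell, with log2 fold changes between -6.33 and -4.69, and Ppl, a plakin, was at 0.495, 0.142 and 0.328 CPM against 14.8, 17.8 and 13.6 CPM. The log2 fold change of Nlrc3 depended on the reference, at -1.13 where reads were quantified against the standard mouse reference and -4.63 in the deposited gene counts, and Nlrc3 was called in all 16 alternatives. Spon1 and Ifi213 were among the genes that fell most and lost their calls without Z2754 and without Z2551, Spon1 also without Z2785, Z2641 or Z2606 and Ifi213 also without Z2755. In these bulk samples fewer cells of a type and less RNA per cell cannot be told apart, and this holds for every gene described here.

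Genes of chromosome 15 stood higher as a group in all 3 Eµ-MTCP1 mice. For each mouse the log2 ratio of every tested gene to the wildtype mean was taken, and the median over the 437 genes of chromosome 15 was 0.55 in Z2641, 0.54 in Z2606 and 0.59 in Z2551. The same median was 0.10, 0.01 and -0.11 in the wildtype mice Z2785, Z2755 and Z2754. The 19 other chromosomes tested had medians between -0.30 and 0.14 in Eµ-MTCP1 mice, so that chromosome 15 lay above every other chromosome in each of the 3 animals. Relative to the other autosomes the shift averaged 0.60 ± 0.01 (SD, n = 3), between 0.58 and 0.61. For scale, the log2 of 3 copies over 2 is 0.58, but DNA copy number was not measured and its part in the shift was not tested. Eµ-TCL1 mice, compared with the same wildtype mice, had chromosome 15 medians of 0.56, 0.47 and 0.40.

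**Figure D1:**
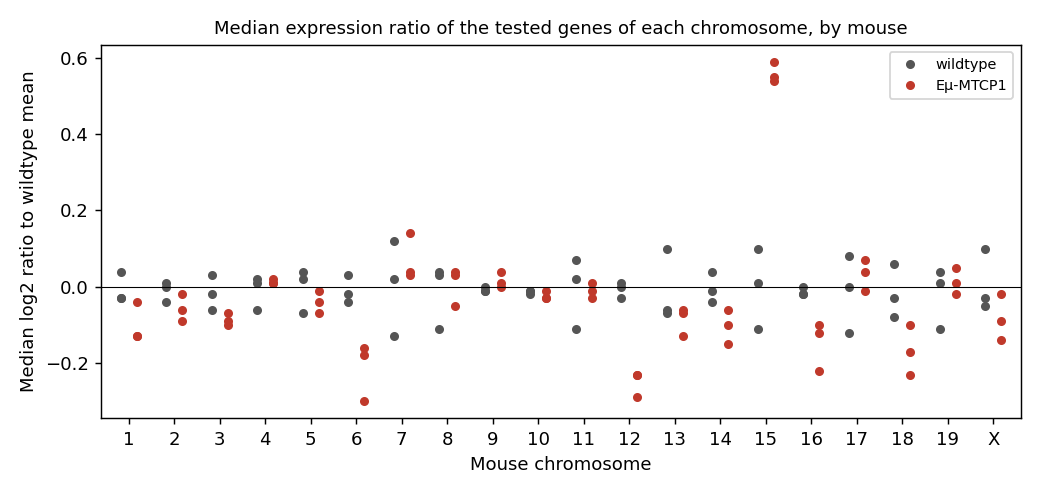
Median log2 ratio to the wildtype mean (vertical axis) over the tested genes of each mouse chromosome (horizontal axis), with 1 point for each wildtype (grey) and Eµ-MTCP1 (red) mouse. The red points of chromosome 15 lie between 0.54 and 0.59, above those of the 19 other chromosomes, which reach 0.14.

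The shift was spread over much of the chromosome's genes. Genes above the wildtype mean made up 75.1, 81.9 and 78.3% of chromosome 15 genes in Z2641, Z2606 and Z2551, against 65.2, 51.7 and 34.1% in the wildtype mice Z2785, Z2755 and Z2754 and 46.5, 46.4 and 48.8% of the genes elsewhere in the same Eµ-MTCP1 mice. The quartiles of the log2 fold changes on chromosome 15 were 0.11 and 0.97. In windows of 20 Mb the medians ran from 0.09 to 0.35 at the start of the chromosome and from 0.61 to 0.69 in the last one, which starts at 80 Mb and holds 197 genes. Of the 437 genes, 101 were called higher (23.1%) and 2 lower (0.458%), while between 2.60 and 6.55% of the genes of any other chromosome were called higher. Chromosome 15 held 3.99% of the tested genes and 16.5% of those called higher.

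Genes described with other results that lie on this chromosome include Krt8, Lgals1, Racgap1, Itgb7, Ptk2, Rapgef3, Tnfrsf13c and Creld2. The 2 lower genes of chromosome 15 were Lrrk2 and Pim3, which encodes a survival kinase (log2 fold change -0.97, edgeR adjusted p = 0.0418). Myc, a growth regulator on this chromosome that was singled out after its values were seen, stood at 93.8, 104 and 252 CPM in Eµ-MTCP1 mice against 218, 299 and 199 CPM in wildtype mice. Its values overlapped between groups and it was not called (log2 fold change -0.67, edgeR adjusted p = 0.271).

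The transgene lies in Fam168a, and the genes around Fam168a were examined as a group, with distances measured from the edge of that gene and not from the insertion. Within 500 kb of Fam168a (chr7:100706635-100841656, plus strand, GRCm38) the annotation lists 41 genes, 19 of them protein coding, of which 15 were tested. Arhgef17, Relt, Dnajb13 and Ucp2 were higher and Fchsd2 was lower, 5 of 15 beside 9.49% of all genes. Arhgef17, an exchange factor for small GTPases (chr7:100869752-100932107, minus strand) lies 28.1 kb from Fam168a. It stood at 50.9, 62.5 and 45.8 CPM in Eµ-MTCP1 mice, which is 308, 440 and 279 reads, whereas wildtype mice had 3, 0 and 0 reads and Eµ-TCL1 mice 0, 1 and 2. The gene was therefore expressed in the Eµ-MTCP1 mice and at the floor in the other 6, at least 138-fold higher than in wildtype mice (log2 fold change 8.51 ± 0.75, edgeR adjusted p = 0.000253), and it passed the direct test against Eµ-TCL1 mice (log2 fold change 8.46 ± 0.75, edgeR adjusted p = 0.00135). Every one of 16 alternative analyses called Arhgef17 higher than in wildtype mice.

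Relt, a receptor of the tumor necrosis factor receptor family (chr7:100845847-100863446, minus strand, 4.19 kb from Fam168a), was at 240, 279 and 213 CPM in Eµ-MTCP1 mice against 33.5, 34.2 and 29.1 CPM in wildtype mice (log2 fold change 2.92 ± 0.24, edgeR adjusted p = 0.000191). The Eµ-TCL1 mice lay between them at 102, 58.8 and 90.5 CPM and were also above the shared wildtype mice (log2 fold change 1.38 ± 0.23, edgeR adjusted p = 0.00405). The direct difference between the 2 leukemia models had an unadjusted p of 3.49e-05 and missed the threshold after adjustment over all genes (log2 fold change 1.54 ± 0.22, edgeR adjusted p = 0.078).

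**Figure D2:**
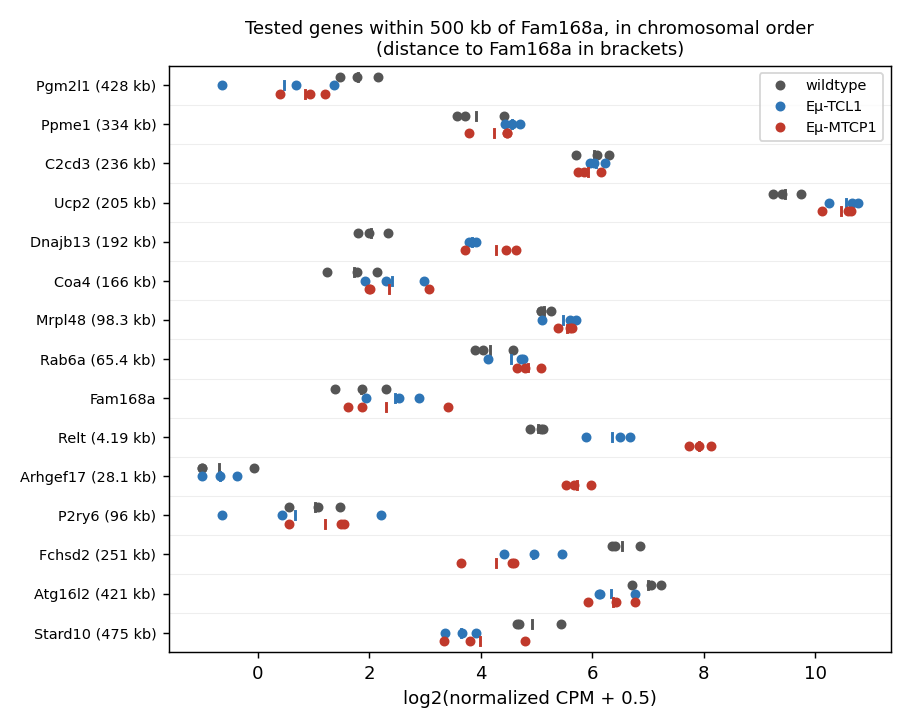
Level of each tested gene within 500 kb of Fam168a as log2 of CPM plus 0.5, in chromosomal order with the distance to Fam168a in brackets, where points are mice, short bars are group means and colors mark the 3 groups. Arhgef17 is near the left edge in the 6 wildtype and Eµ-TCL1 mice and far to the right in Eµ-MTCP1 mice (45.8 CPM or more), and the Eµ-MTCP1 points of Relt lie to the right of both other groups.

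The result for Fam168a itself depended on the reference. Against the reference used for the main analysis, whose sequences are mostly coding, it had 19, 18 and 62 reads in Eµ-MTCP1 mice and 21, 41 and 17 in wildtype mice, and was not called (log2 fold change 0.70 ± 0.61, edgeR adjusted p = 0.509). Against the standard mouse reference with full-length transcripts the reads numbered 1057, 1285 and 1531 against 216, 291 and 292, and it was higher (log2 fold change 2.60 ± 0.21, edgeR adjusted p = 0.000134). Eµ-TCL1 mice had 399, 403 and 407 reads there, and the direct difference also passed (log2 fold change 1.85 ± 0.20, edgeR adjusted p = 0.0128). The deposited gene counts gave 500, 508 and 864 reads against 221, 284 and 284 (log2 fold change 1.53 ± 0.26, edgeR adjusted p = 0.00455). There the direct difference from Eµ-TCL1 mice did not pass (log2 fold change 0.87 ± 0.25, edgeR adjusted p = 0.574), and in the main analysis it was 0.03 ± 0.60 (edgeR adjusted p = 0.999). Gm3200, a processed pseudogene within Fam168a, had 209, 661 and 460 reads against 12, 60 and 22 in the standard reference (log2 fold change 4.18 ± 0.56, edgeR adjusted p = 0.00169). Eµ-TCL1 mice had 19, 27 and 17 reads of Gm3200 there, and its direct difference passed (log2 fold change 4.56 ± 0.58, edgeR adjusted p = 0.0283). It also passed in the deposited gene counts (log2 fold change 4.34 ± 0.51, edgeR adjusted p = 0.0181). Since Gm3200 lies inside Fam168a, reads of the pseudogene and of its host may be divided differently by the counting methods, and its value is uncertain.

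Farther away, Fchsd2, a membrane-remodeling protein, was at 12.1, 23.2 and 23.6 CPM against 84.8, 81.1 and 116 CPM (log2 fold change -2.26 ± 0.33, edgeR adjusted p = 0.00232). Ucp2, a mitochondrial carrier, stood at 1120, 1600 and 1550 CPM against 860, 676 and 605 CPM (log2 fold change 1.0 ± 0.24, edgeR adjusted p = 0.0283), and it lost its call in 6 alternatives, among them those without Z2755, Z2754, Z2606 or Z2551. Dnajb13, a cochaperone of cilia, was at 12.7, 24.3 and 21.5 CPM against 4.53, 3.47 and 2.97 CPM (log2 fold change 2.41 ± 0.33, edgeR adjusted p = 0.00164), but was not called in the deposited gene counts (log2 fold change 0.49 ± 0.28, edgeR adjusted p = 0.303). Eµ-TCL1 mice, which lack the insertion and were compared with the same wildtype mice, had log2 fold changes of -1.57 for Fchsd2, 1.10 for Ucp2 and 1.93 for Dnajb13, all called (edgeR adjusted p = 0.0129, 0.0187 and 0.00514). The direct difference between the models did not pass for any of these 3 genes.

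Only 4 genes (0.0358%) passed the direct test between Eµ-MTCP1 and Eµ-TCL1 B cells in the edgeR analysis, and 715 (6.41%) had an unadjusted p under 0.05, while DESeq2 called 71. They were human MTCP1 and Arhgef17, which were higher, and human TCL1A and Neto2, an accessory subunit of glutamate receptors, which were lower. Neto2, singled out after its values were seen, was at most at 0.328 CPM in Eµ-MTCP1 mice and 0.619 CPM in wildtype mice, against 19.9, 41.4 and 48.8 CPM in Eµ-TCL1 mice (edgeR adjusted p = 0.0262). Of the 1059 genes called against wildtype, human MTCP1 and Arhgef17 passed the direct test while 16 had a direct unadjusted p under 0.001 (0.287% of all genes tested had one), the others with adjusted p of 0.078 or above. Those others are described here by their values, since the direct difference did not pass the threshold. Cyp11a1, which encodes the enzyme that starts steroid synthesis from cholesterol, was at 325, 260 and 142 CPM in Eµ-MTCP1 mice, at 1.51, 1.19 and 0.496 CPM in wildtype mice and at 69.0, 61.6 and 54.1 CPM in Eµ-TCL1 mice. Its groups did not overlap and it was higher than in wildtype (log2 fold change 7.82 ± 0.45, edgeR adjusted p = 2.84e-05). The difference from Eµ-TCL1 mice was 1.98 ± 0.32 on the log2 scale (edgeR unadjusted p = 9.59e-05).

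Tns1, tensin 1, links integrins to the actin cytoskeleton and stood at 64.9, 78.8 and 47.6 CPM in Eµ-MTCP1 mice, 0.755, 4.34 and 1.86 CPM in wildtype mice, and 8.82, 8.10 and 9.27 CPM in Eµ-TCL1 mice. It was higher than in wildtype (log2 fold change 4.73 ± 0.49, edgeR adjusted p = 0.000413), and all 3 groups were separate. Igsf21, a cell adhesion protein of the immunoglobulin superfamily, was at 19, 33.4 and 28.1 CPM with no reads in any wildtype library, at least 69.8-fold higher, and at 6.30, 3.07 and 4.29 CPM in Eµ-TCL1 mice. Timp2, an inhibitor of matrix metalloproteinases, stood at 11.9, 21.9 and 9.84 CPM against 1.66, 2.39 and 1.24 CPM in wildtype mice, with 3.78, 2.46 and 2.35 CPM in Eµ-TCL1 mice. Zfp395, a zinc finger gene, was at 31.9, 36.8 and 37.1 CPM, at 16.5, 14.9 and 15.4 CPM in wildtype mice and between 14.8 and 18.5 CPM in Eµ-TCL1 mice, but it lost its call with transcript length offsets.

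Bach2, a repressor that holds back plasma cell development, was at 44.9, 38.1 and 34.5 CPM in Eµ-MTCP1 mice against 85.7, 89.1 and 83.4 CPM in wildtype mice (log2 fold change -1.14 ± 0.21, edgeR adjusted p = 0.00701), with 22.1, 14.1 and 20.3 CPM in Eµ-TCL1 mice. Il12a, a subunit of interleukins 12 and 35, stood at 3.30, 2.98 and 3.61 CPM against 18.6, 17.6 and 24.8 CPM in wildtype mice and 40.3, 8.35 and 75.2 CPM in Eµ-TCL1 mice. Its fall against wildtype (log2 fold change -2.62 ± 0.63, edgeR adjusted p = 0.028) was lost whichever of the 6 mice was left out. Lyst, a lysosomal trafficking regulator, was at 22.3, 33.4 and 32.0 CPM against 52.1, 68.2 and 64.5 CPM, but its direction turned to a log2 fold change of 1.12 with transcript length offsets, so no direction can be given. Slc52a3, a riboflavin transporter, had no reads in the 3 Eµ-MTCP1 libraries, and its call was lost without Z2755, without Z2754 or without Z2551. The remaining genes with a small direct p were Gm3839, Tmem88, Abcc1, Ighv5-9-1 and Relt.

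**Figure D3:**
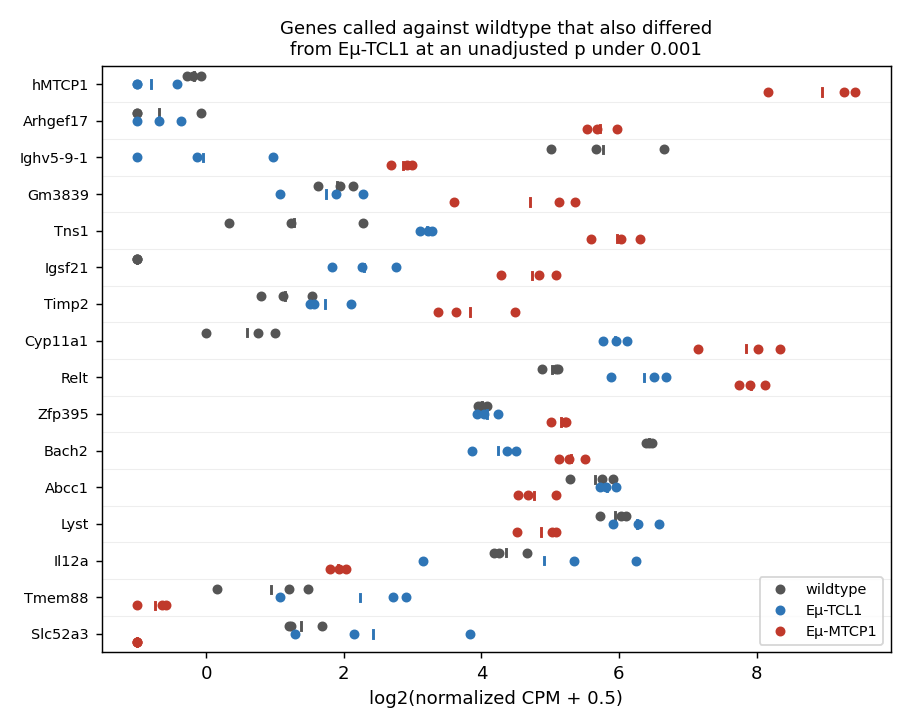
Level, as log2 of CPM plus 0.5, of the 16 genes called against wildtype that had an unadjusted p under 0.001 against Eµ-TCL1, where points are mice, short bars are group means and colors mark the 3 groups. Arhgef17 is at 45.8 CPM or above in the 3 Eµ-MTCP1 mice and at or under 0.453 CPM in the other 6 mice.

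Signaling from the B-cell receptor was examined through 67 tested genes, of which 8 were higher and 3 lower (16.4% called beside 9.49% of all genes, median log2 fold change -0.15). The balance of directions depended on the method, with 6 higher and 8 lower under library-size scaling and 10 higher and 9 lower by DESeq2. Lyn, Syk, Btk and Plcg2 did not pass, with log2 fold changes between -0.49 and 0.57. Among the inhibitors, Ptpn22, a phosphatase of lymphocyte kinases, was at 391, 421 and 454 CPM against 96.7, 98.6 and 114 CPM (log2 fold change 2.03 ± 0.18, edgeR adjusted p = 0.000253). Cd5, a negative regulator of the receptor and the marker of B1 and CLL cells, stood at 47.4, 23.9 and 38.9 CPM against 4.83, 1.41 and 0.743 CPM (log2 fold change 4.02 ± 0.65, edgeR adjusted p = 0.00378, and 5.05 on the log2 scale without Z2785). Fcgr2b, the inhibitory Fc receptor, was called (log2 fold change 1.35 ± 0.33, edgeR adjusted p = 0.0288) but lost the call whichever of the 6 mice was left out.

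Of 19 calcium and diacylglycerol genes downstream of the receptor 4 were higher and 1 lower (26.3% called beside 9.49% of all genes). Their median log2 fold change was -0.2, and 7 of the 19 had a positive one. Orai2, a calcium channel, was at 99.8, 85.8 and 72.5 CPM against 39.0, 35.0 and 27.5 CPM (log2 fold change 1.35 ± 0.22, edgeR adjusted p = 0.00355). Rasgrp1, an activator of RAS that responds to diacylglycerol, rose by 1.17 ± 0.16 on the log2 scale (edgeR adjusted p = 0.00172), and Dgka, which removes diacylglycerol, fell by 1.22 on the same scale (edgeR adjusted p = 0.00681). In a separate list of calcium genes, 4 of 28 tested were higher and none lower (14.3% called, beside 9.49% of all genes), with 7 higher by DESeq2 and 2 without Z2755. It included Atp2a3, the endoplasmic reticulum calcium pump, at 1900, 2040 and 2220 CPM against 938, 898 and 648 CPM, and Ryr1, a calcium release channel, at 56.6, 46.3 and 46.6 CPM against 16.2, 15 and 14.9 CPM. Without Z2755 2 of the 28 were higher.

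Since MTCP1 binds AKT, genes of the PI3K, AKT and mTOR pathway were listed at the level of mRNA, which does not measure AKT activity. Of 56 tested, 2 were higher and 2 lower, a share of 7.14% beside 9.49% of all genes. Pik3c2b, a class II PI3K, was at 210, 260 and 209 CPM against 102, 66.5 and 89.2 CPM (log2 fold change 1.39 ± 0.20, edgeR adjusted p = 0.00217). Inppl1, which encodes the lipid phosphatase SHIP2, stood at 58.1, 52.6 and 47.7 CPM against 23.7, 17 and 13.1 CPM (log2 fold change 1.56 ± 0.26, edgeR adjusted p = 0.00465). Neither overlapped with wildtype. Akt1 and Akt2 were not called, with adjusted p of 0.318 and 0.725 by edgeR. Sesn1, a stress-induced inhibitor of mTOR complex 1, was lower at 12.6, 39.2 and 28.7 CPM against 69.5, 95.5 and 104 CPM (log2 fold change -1.74 ± 0.37, edgeR adjusted p = 0.0162), and lost its call without Z2755, Z2754 or Z2551.

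Focal adhesion and integrin genes had 8 higher and 3 lower among 45 tested (24.4% called, 9.49% over all genes). Itgb1, the integrin beta 1 chain, was at 369, 270 and 243 CPM against 41.5, 43.3 and 62.1 CPM (log2 fold change 2.59 ± 0.26, edgeR adjusted p = 0.000341). The 2 focal adhesion kinases moved in opposite directions. Ptk2, which encodes FAK, stood at 42.3, 33.5 and 32.8 CPM against 11.6, 18.1 and 11.6 CPM (log2 fold change 1.39 ± 0.33, edgeR adjusted p = 0.0275), and Ptk2b, which encodes its relative PYK2, at 135, 197 and 203 CPM against 588, 549 and 494 CPM (log2 fold change -1.61 ± 0.25, edgeR adjusted p = 0.00319). The groups were separate for both genes, but the Ptk2 call was lost with library-size scaling and without Z2785, Z2754, Z2641 or Z2551, and Ptk2 lies on chromosome 15. Itgb7 and Cd9 also rose and lost the call without Z2754, Itgb7 also without Z2755. Without Z2754, 2 members of the list were higher, without Z2785 or Z2551 and with library-size scaling 4, and without Z2755 or Z2606 5.

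Regulators of small GTPases that shape the cytoskeleton were called in both directions. Racgap1, a GTPase-activating protein of cell division, stood at 172, 115 and 125 CPM against 36.1, 39.0 and 20.4 CPM (log2 fold change 2.11 ± 0.27, edgeR adjusted p = 0.00115). Fgd6, a CDC42 exchange factor, was at 66.1, 73.4 and 48.6 CPM against 19.6, 18.1 and 20.4 CPM (log2 fold change 1.69 ± 0.31, edgeR adjusted p = 0.0074). The exchange factors Vav3 and Dock10 were lower (log2 fold changes -3.16 and -1.07, edgeR adjusted p = 0.00761 and 0.0186). Vav3 lost its call with transcript length offsets, and Dock10 without Z2755, Z2754, Z2606 or Z2551. Of 40 genes of the cAMP and protein kinase A pathway, 3 were higher and 2 lower, a share of 12.5% that is near the 9.49% of all genes. The 3 higher, Pkig, Akap5 and Rapgef3, were all lost without Z2755, Z2754 or Z2551 and with library-size scaling, while DESeq2 called 5 higher, and among the lower Pkib, an inhibitor of the kinase, fell by 3.15 on the log2 scale (edgeR adjusted p = 0.00939).

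**Figure D4:**
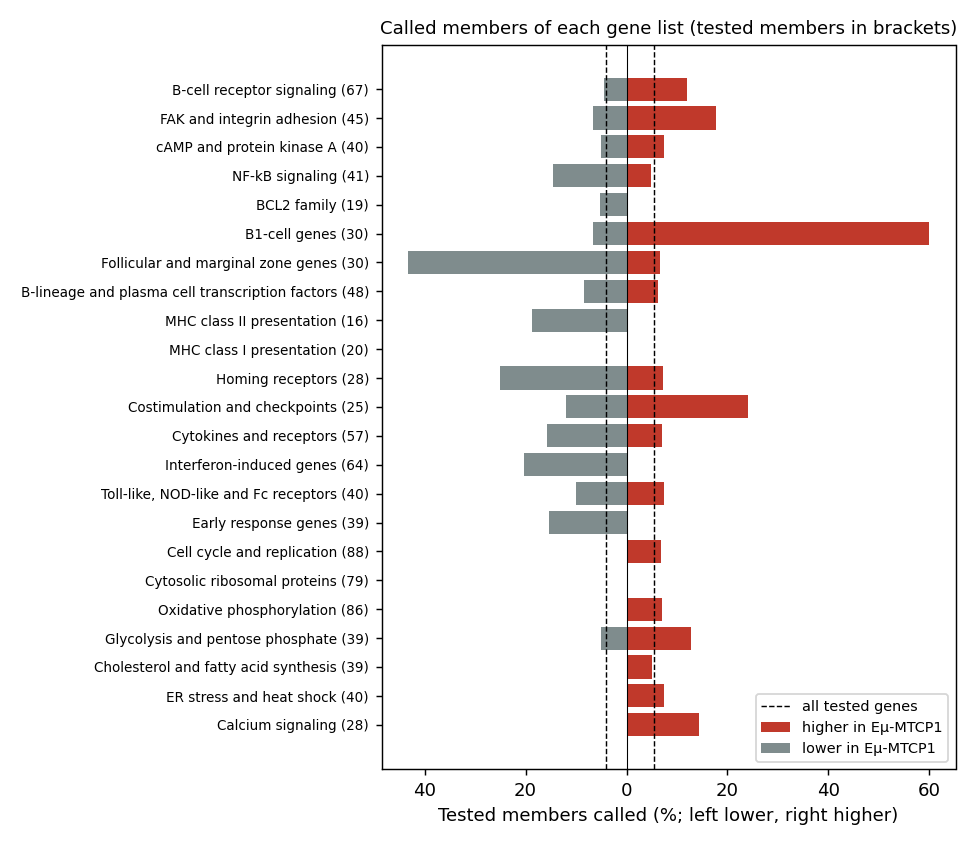
Percentage of the tested genes of each list called higher (red bars, to the right) or lower (grey bars, to the left) in Eµ-MTCP1 against wildtype mice, with dashed lines at the percentages over all genes tested. The longest bar to the right is that of B1-cell genes (18 of 30) and the longest to the left that of follicular and marginal zone genes (13 of 30).

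NF-kB is the transcription factor family activated by B-cell receptor, CD40 and Toll-like receptor signals. Of 41 genes tested, 2 were higher and 6 lower (19.5% called beside 9.49% of all genes, median log2 fold change -0.47). DESeq2 and library-size scaling each gave 12 lower. Cd40, a receptor for T-cell help, stood at 26.4, 42.5 and 67.8 CPM against 166, 138 and 153 CPM (log2 fold change -1.74 ± 0.30, edgeR adjusted p = 0.0055). Tnfaip3, a target and inhibitor of NF-kB, was at 24.9, 89.1 and 63.7 CPM against 249, 196 and 203 CPM (log2 fold change -1.86 ± 0.37, edgeR adjusted p = 0.0109). Nfkb2, a subunit of the alternative pathway, was at 84.6, 83.1 and 105 CPM against 317, 331 and 285 CPM (log2 fold change -1.77 ± 0.39, edgeR adjusted p = 0.0185), and its call was lost without Z2755, Z2754 or Z2551. In Eµ-TCL1 mice Nfkb2 stood at 427, 110 and 298 CPM, and the direct difference was -1.61 ± 0.39 (edgeR unadjusted p = 0.00182). Rel lost its call without Z2755, Z2754, Z2641 or Z2551, Birc3 without Z2785, Z2754, Z2606 or Z2551, and Nfkbia whichever of the 6 mice was left out. Without Z2755, Z2754 or Z2551 the number of lower genes was 3, 2 and 3. Of the higher genes Relt is the one described beside Fam168a, and Tnfrsf13c, the BAFF receptor, lies on chromosome 15.

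Genes that mark B1 cells rose. Of 30 tested, 18 were higher and 2 lower (66.7% called beside 9.49% of all genes), with a median log2 fold change of 2.08. Zbtb32, a transcriptional repressor of B1 cells, stood at 311, 476 and 472 CPM against 20.2, 12.4 and 12.3 CPM (log2 fold change 4.81 ± 0.35, edgeR adjusted p = 0.000117). Sox5, a transcription factor, was at 121, 58.1 and 65.5 CPM against 5.44, 3.58 and 3.22 CPM (log2 fold change 4.33 ± 0.38, edgeR adjusted p = 0.000253). Nid1, a basement membrane protein, was at 152, 371 and 202 CPM against 25.8, 14.4 and 15.1 CPM (log2 fold change 3.71 ± 0.47, edgeR adjusted p = 0.00104). In each of these genes all Eµ-MTCP1 mice were above all wildtype mice. Arid3a, Pstpip2 and Lgals1 rose as well, with log2 fold changes of 2.65, 3.38 and 3.19, and Bhlhe40, a repressor of the same family as Bhlhe41, fell by 3.40 on the log2 scale (edgeR adjusted p = 0.000419). Between 16 and 20 members were higher in the alternatives.

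Genes of follicular B cells fell, with 9 of 16 lower, none higher and a median log2 fold change of -2.0 (56.2% called, all lower, beside 4.0% of all genes lower). Fcer2a (CD23) was at 5.78, 15.1 and 8.20 CPM against 361, 293 and 414 CPM (log2 fold change -5.19 ± 0.41, edgeR adjusted p = 0.000175). Cr2 (CD21) stood at 4.13, 12.9 and 50.4 CPM against 610, 751 and 1070 CPM (log2 fold change -5.18 ± 0.75, edgeR adjusted p = 0.00214, and -6.56 on the log2 scale without Z2551). Icosl, the ligand of the T-cell receptor ICOS, was at 4.79, 9.09 and 5.58 CPM against 102, 103 and 106 CPM (log2 fold change -3.99 ± 0.42, edgeR adjusted p = 0.000417). Ighd was at 66.4, 198 and 126 CPM against 933, 828 and 1080 CPM (log2 fold change -2.86 ± 0.43, edgeR adjusted p = 0.00269), and Zfp318, which permits IgD expression, fell by 2.50 on the log2 scale (edgeR adjusted p = 0.000275). All Eµ-MTCP1 mice lay below all wildtype mice in these 5 genes. Of 14 marginal zone and transitional genes, 4 were lower and 2, Mzb1 and Cd9, higher (42.9% called beside 9.49% of all genes). Mzb1 lost its call in 7 of 16 alternatives, and Cd9 in the one without Z2754. Over the 30 follicular and marginal zone genes tested the lower ones numbered 13, and 8, 9 and 8 without Z2755, Z2754 or Z2551, while the higher ones went from 2 to 1, 0 and 1.

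**Figure D5:**
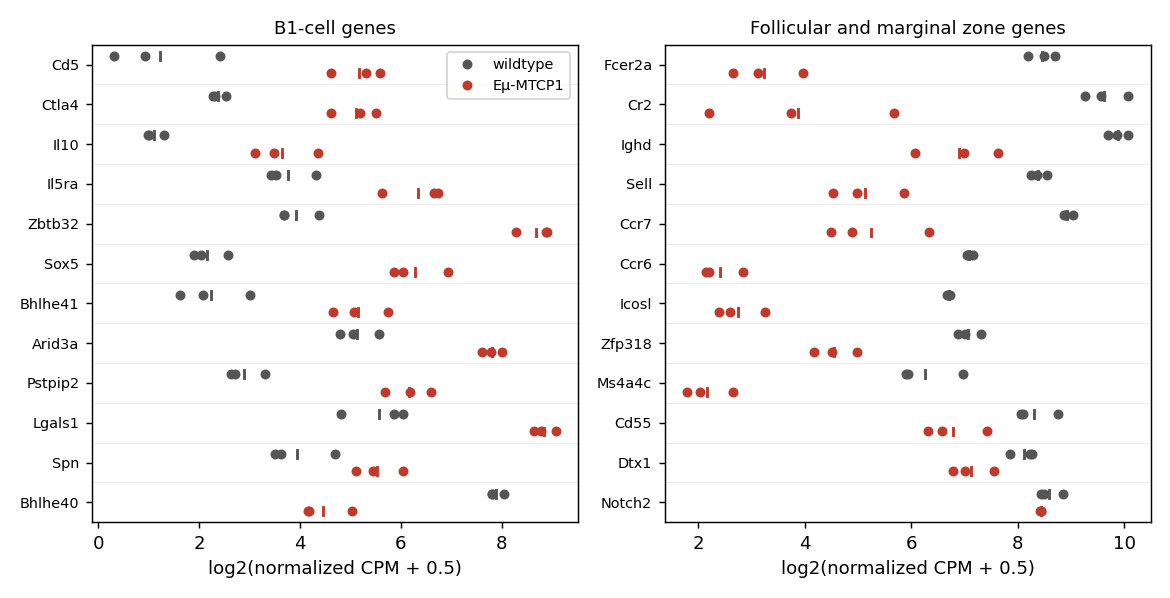
Level, as log2 of CPM plus 0.5, of B1-cell genes (left) and of follicular and marginal zone genes (right), where points are wildtype (grey) and Eµ-MTCP1 (red) mice and short bars are group means. Zbtb32 runs from 311 to 476 CPM in Eµ-MTCP1 mice and reaches 20.2 CPM in wildtype mice, Fcer2a runs from 5.78 to 15.1 CPM against 293 CPM or more, and Notch2 and Spn are shown although they were not called.

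The rearranged heavy chain repertoire was narrow. The leading variable segment took 91.4% of Ighv reads in Z2641 (Ighv5-4), 95.8% in Z2606 (Ighv12-3) and 98.0% in Z2551 (Ighv1-55), against 14.8, 5.83 and 11.6% in wildtype mice. Each leukemia thus used another segment, and the mean share was 95.1 ± 3.37% (SD, n = 3) against 10.7 ± 4.52% (SD, n = 3). In an exact two-sided permutation test p was 0.1, the smallest value that 3 against 3 mice allow.

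Transcription factors of the B lineage were mostly not called, with 3 of 48 higher and 4 lower (14.6% called, 9.49% over all genes), and 1, 1 and 2 higher without Z2755, Z2754 or Z2551. DESeq2 gave 4 higher and 10 lower, and library-size scaling 2 higher and 8 lower. Tcf4, an E-protein, was at 394, 357 and 390 CPM against 187, 144 and 127 CPM (log2 fold change 1.32 ± 0.21, edgeR adjusted p = 0.0039). Bcl6, the germinal center repressor, stood at 10.7, 18.5 and 13.9 CPM against 78.1, 60.7 and 56.1 CPM (log2 fold change -2.17 ± 0.42, edgeR adjusted p = 0.00939). Pax5 and Ebf1, which fix B-cell identity, had log2 fold changes of -0.42 and -0.59 and were not called. Prdm1, the plasma cell regulator, was higher (log2 fold change 2.11 ± 0.49, edgeR adjusted p = 0.0227), but lost the call without Z2755, Z2754, Z2606 or Z2551. Plasma cell markers summed to between 1060 and 4250 CPM in Eµ-MTCP1 mice and between 1220 and 1960 CPM in wildtype mice, and Prdm1 and Mzb1 were the 2 of 10 called. The part of plasma cells in these 2 genes was not tested.

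Homing receptors had 2 higher and 7 lower of 28 tested (32.1% called, 9.49% over all genes), and without Z2755, Z2754 or Z2551 the lower genes numbered 4, 3 and 3. Ccr7, which guides lymphocytes to T-cell zones, was at 22.1, 80.5 and 29.2 CPM against 526, 465 and 471 CPM (log2 fold change -3.47 ± 0.45, edgeR adjusted p = 0.00119). Ccr6, the receptor for CCL20, was at 3.96, 4.12 and 6.73 CPM against 143, 131 and 134 CPM (log2 fold change -4.78 ± 0.68, edgeR adjusted p = 0.00189). Ccr1, an inflammatory chemokine receptor, moved the other way at 26.9, 50.6 and 54.1 CPM against 6.95, 6.30 and 8.80 CPM (log2 fold change 2.58 ± 0.34, edgeR adjusted p = 0.0013). The follicle receptor Cxcr5 and the egress receptor S1pr1 overlapped between groups and were not called. Cxcr4, a bone marrow homing receptor, was lower (log2 fold change -1.60 ± 0.42, edgeR adjusted p = 0.0395), with the call lost when any of Z2785, Z2755, Z2754, Z2641 or Z2551 was left out.

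Among 25 costimulatory and checkpoint genes, 6 were higher and 3 lower, 36% beside 9.49% of all genes. Cd80, a ligand of CD28 and CTLA-4, was at 21.5, 21 and 23.1 CPM against 2.87, 2.39 and 2.35 CPM (log2 fold change 3.10 ± 0.32, edgeR adjusted p = 0.000388). Pdcd1lg2, the PD-1 ligand PD-L2, was at 18.3, 30.0 and 22.3 CPM against 2.72, 1.30 and 0.991 CPM (log2 fold change 3.83 ± 0.47, edgeR adjusted p = 0.000912), and its log2 fold change was 1.79 in the deposited gene counts. Ctla4, an inhibitory receptor, stood at 24.1, 44.9 and 36.1 CPM against 5.29, 4.45 and 4.34 CPM (log2 fold change 2.90 ± 0.51, edgeR adjusted p = 0.00583). The groups were separate for these 3 genes. Tnfsf4, Nt5e and Entpd1 also rose, and without Z2755, Z2754 or Z2551 the list held 3, 3 and 4 higher genes. Cd274, the other PD-1 ligand, was at 29.1, 34.9 and 30.8 CPM against 21.9, 31.7 and 20.1 CPM and was not called (edgeR adjusted p = 0.329). T cells also express Ctla4. The T-cell genes Cd3e, Cd3g and Cd2 did not move together: Cd3e had 0, 1 and 1 reads against 11, 3 and 6, Cd3g 136, 12 and 3 reads against 9, 11 and 14, and Cd2 stood at 798, 895 and 436 CPM against 345, 328 and 360 CPM. The part of T cells in the checkpoint genes was not tested.

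Cytokines and their receptors had 4 higher and 9 lower of 57 (22.8% called, 9.49% over all genes). The lower genes numbered 16 by DESeq2 and 17 with library-size scaling, and without Z2755, Z2754 or Z2551 2 were higher and 7, 5 and 7 lower. Il10, an anti-inflammatory cytokine made by B1 cells, was at 10.7, 8.10 and 19.9 CPM against 1.51, 1.95 and 1.49 CPM (log2 fold change 2.95 ± 0.47, edgeR adjusted p = 0.00338). Il5ra, a receptor chain of B1 cells, was at 48.9, 106 and 101 CPM against 11, 10.2 and 19.5 CPM (log2 fold change 2.65 ± 0.34, edgeR adjusted p = 0.00116). Il21r, Il27ra and Ifngr1 fell by 2.12, 1.75 and 1.19 on the log2 scale, with edgeR adjusted p of 0.00829, 0.00344 and 0.00472. Of the antigen presentation genes 3 of 16 class II genes were lower (18.8%, beside 9.49% of all genes called), and 1, 1, 0 and 0 without Z2755, Z2754, Z2551 or Z2785. None of 20 class I genes was called, and the class II genes H2-Aa, H2-Ab1, H2-Eb1 and Cd74 were not called, with log2 fold changes between -0.13 and 0.10. Ciita, the class II regulator, was at 254, 404 and 365 CPM against 786, 772 and 559 CPM (log2 fold change -1.05 ± 0.23, edgeR adjusted p = 0.0171), and lost its call without Z2785, Z2755 or Z2551.

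Interferon-induced genes include antiviral effectors and sensors of foreign nucleic acid. Of 64 tested, 13 were lower and none higher by edgeR (20.3% called beside 9.49% of all genes, median log2 fold change -1.15 beside -0.02). DESeq2 called 25 lower, and leaving out Z2755, Z2754 or Z2551 left 8, 6 and 6. Oasl1, an antiviral gene, stood at 0.165, 1.28 and 1.64 CPM against 20.1, 20.3 and 18.2 CPM (log2 fold change -4.22 ± 0.68, edgeR adjusted p = 0.00379). Ifi206, a member of the Ifi200 family of DNA-sensing proteins, was at 7.60, 4.83 and 10.2 CPM against 73.6, 68.3 and 85.7 CPM (log2 fold change -3.33 ± 0.60, edgeR adjusted p = 0.00688). Ifi214, of the same family, had at most 2 reads in any Eµ-MTCP1 library against 14.2, 19.6 and 34.2 CPM in wildtype mice, and the log2 fold change of Ifi214 was -3.26 in the standard reference and -4.13 in the deposited gene counts. Stat2, a subunit of the interferon-activated factor ISGF3, was at 24.6, 38.9 and 24.1 CPM against 94.4, 103 and 74.5 CPM (log2 fold change -1.63 ± 0.30, edgeR adjusted p = 0.00744). Reads of Ifi200 family genes could be shared, because the family is made of near copies, and the fold of any 1 member is therefore uncertain.

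The sites to which ISGF3 binds hold pairs of GAAA, so that promoters from RefSeq (GRCm38.p6, 250 bases before to 50 after each start) were searched on both strands for GAAANNGAAA. The letters occurred in 1079 of 27025 promoters (3.99%), in 9 of 11 lower interferon genes with a promoter and in 24 of 36 of the other tested interferon genes. The windows of 5 lower genes are printed to show the shared letters, with the match in capitals and 8 bases on each side.
Ddx60 at chr8:61928026-61928051, plus strand: gatgaatgGAAACCGAAActtaaagc
Ifi206 at chr1:173491341-173491366, minus strand: tctctgagGAAATCGAAAgctatgaa
Ifi214 at chr1:173536019-173536044, minus strand: tctctgagGAAATCGAAAgcgatgca
Stat2 at chr10:128270268-128270293, minus strand: agggaaagGAAACTGAAAccagggtg
Slfn8 at chr11:83020841-83020866, plus strand: cttttgggGAAAACGAAActgctcaa
A match of letters describes the sequence and is no test of binding. Genes of the list that were not called also held it in most cases.

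Genes that respond early to stimulation included 6 lower and none higher of 39 by edgeR (15.4% called, 9.49% over all genes). Nr4a2, an orphan nuclear receptor induced by receptor signaling, was at 0, 1.28 and 0 CPM against 9.97, 13.9 and 13.1 CPM (log2 fold change -4.73 ± 0.99, edgeR adjusted p = 0.0145), and lost its call without Z2755 or Z2754. Its Eµ-MTCP1 reads were all in Z2606, without which the fitted log2 fold change was -9.52, so that its size is not fixed by these data. Dusp6, a phosphatase of ERK, was at 23.5, 35.9 and 27.2 CPM against 74.6, 73.8 and 61.5 CPM (log2 fold change -1.28 ± 0.27, edgeR adjusted p = 0.0165). Its call was lost without Z2755 or Z2551. Without Z2755 none of the 39 genes was lower, without Z2754 1 and without Z2551 2.

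Of 88 cell cycle genes 6 were higher and none lower by edgeR, a share of 6.82% called beside 9.49% of all genes, with a median log2 fold change of 0.72. Ccnd2, a D-type cyclin, was at 212, 282 and 272 CPM against 120, 105 and 78.5 CPM (log2 fold change 1.34 ± 0.22, edgeR adjusted p = 0.00462). Ccne1, the cyclin of S-phase entry, was at 30.1, 19.9 and 21.7 CPM against 4.68, 9.44 and 4.96 CPM (log2 fold change 1.90 ± 0.35, edgeR adjusted p = 0.00814). Mki67, the proliferation marker, stood at 515, 112 and 200 CPM against 74.0, 105 and 71.0 CPM (log2 fold change 1.73 ± 0.46, edgeR adjusted p = 0.0409). Z2641 was highest for Mki67, and its call was lost when any of Z2785, Z2755, Z2754, Z2641 or Z2551 was left out. The log2 fold change without Z2641 was 0.88. The count of higher members depended on the analysis, with 16 by DESeq2, 23 by edgeR without Z2606, and 4, 2 and 3 without Z2755, Z2754 or Z2551.

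In metabolism the calls were few. Of 86 oxidative phosphorylation genes 6 were higher (6.98% called, 9.49% over all genes), and 5 of these, Ndufb9, Cox6c, Atp5g2, Ndufa6 and Cyc1, are all the tested members on chromosome 15. Ndufb9, a complex I subunit, was at 203, 279 and 284 CPM against 133, 112 and 112 CPM (log2 fold change 1.10 ± 0.21, edgeR adjusted p = 0.00821). Of the tested members on other chromosomes Ndufs5 was the one called, and DESeq2 called 16 of the 86. Among the 73 nuclear subunits 66 had a positive log2 fold change (median 0.38), and among the 13 mitochondrial subunits 5 did (median -0.26). Without Z2755 or Z2551 1 member was called, without Z2754 2, and without Z2785 10. Glycolysis and pentose phosphate genes had 5 higher and 2 lower of 39 (17.9% called, 9.49% over all genes). Without Z2755, without Z2754 or without Z2551 they had 3 higher and 0 lower. Prps2, which makes the nucleotide precursor PRPP, was at 95.1, 82.4 and 75.6 CPM against 18.9, 15.8 and 21.6 CPM (log2 fold change 2.17 ± 0.24, edgeR adjusted p = 0.00054). Tpi1, a glycolytic enzyme, was at 243, 225 and 219 CPM against 90.7, 111 and 72.2 CPM (log2 fold change 1.33 ± 0.19, edgeR adjusted p = 0.0023). None of 79 cytosolic ribosomal protein genes was called by edgeR, although 11 had an unadjusted p under 0.05 and DESeq2 called 4 higher and 1 lower. A positive log2 fold change was found in 78 of these 79 genes, with a median of 0.47 beside -0.02 over all genes. With library-size scaling these medians were 0.27 and -0.26.

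Genes of endoplasmic reticulum stress had 3 of 24 higher (12.5% called, near the 9.49% of all genes), among them Creld2, a secreted stress protein encoded on chromosome 15, at 459, 488 and 633 CPM against 153, 113 and 63.9 CPM (log2 fold change 2.26 ± 0.35, edgeR adjusted p = 0.0031). The others, Sel1l and Atf6, lost their calls without Z2755, Z2754, Z2606 or Z2551, and none of 16 heat shock genes was called. Of the 24 stress genes 21 had a positive log2 fold change (median 0.64), and of the 16 heat shock genes 5 did (median -0.17). Over these 40 genes DESeq2 called 9 higher, and edgeR without Z2641 6. Of 19 BCL2 family genes 1, Bnip3, was lower (5.26% called beside 9.49% of all genes), and none was without Z2755, Z2754 or Z2551. Bcl2 and Mcl1 were not called, at 81.9, 55.5 and 64.8 CPM against 59.2, 57.5 and 48.2 CPM for Bcl2. Toll-like, NOD-like and Fc receptor genes had 3 higher and 4 lower of 40 (17.5% called beside 9.49% of all genes), and Nlrc3, an inhibitor of innate sensing, was at 0, 0.142 and 0.820 CPM against 26.1, 28.3 and 25.6 CPM (log2 fold change -6.33, and -1.13 in the standard reference). Without Z2755, Z2754 or Z2551 none of the 40 was higher, while DESeq2 called 5. Cholesterol and fatty acid genes had 2 higher of 39, Acacb and Elovl1 (5.13% called beside 9.49% of all genes), and Elovl1 lost its call in 11 of 16 alternatives, among them leaving out any of the 6 mice. DESeq2, which called more genes in all, called 6 of the list higher.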

How the data were processed

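B cells were isolated from mouse spleens with a pan-B kit, and cDNA was preamplified with SMARTer chemistry before sequencing. The authors quantified transcripts with Salmon 1.0.0 against a mouse reference with human TCL1 family sequences added, and the deposited files hold estimated counts per transcript. A second set of deposited estimated counts used the standard mouse reference, and deposited gene counts (HISAT2 2.0.6 and featureCounts per the submitters' processing notes) were used as an alternative. The normalized log2 values deposited by the authors served to assign human transcripts to their columns. Columns of the authors' own comparisons were not used.

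Estimated counts were summed per gene with the GENCODE annotation of GRCm38 and rounded. 455 of 57871 transcripts were not in the annotation and were left out (between 0.19 and 0.291% of reads). In this reference most transcript models hold the coding length only. Genes were tested with edgeR 4.0.16 (R 4.3.3): filterByExpr, TMM factors between 0.912 and 1.18, and quasi-likelihood F tests in a single fit of all 9 libraries without covariates, with Benjamini-Hochberg adjustment over all genes tested. The standard error is the absolute log2 fold change over the square root of F. Genes at or under a floor of 3 reads in a group have a fold given as a lower bound, and this floor covers counting error only. The direct comparison and the comparison of Eµ-TCL1 with wildtype share libraries with the main one. Permutation tests used scipy 1.17.1.

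Alternatives were DESeq2 1.42.0, its size factors in edgeR, library-size scaling, other expression filters, the other 2 count tables, transcript length offsets, a fit without immunoglobulin segments, a fit of the 2 groups alone, and leaving out each mouse. The alternatives for the chromosome medians were chosen after seeing the data. The test code was tested on simulated data. The comparison, the gene lists and the named genes were chosen with earlier results of these data known. Named genes are the 15 largest increases and decreases among called genes with a mean of at least 5 CPM over the 6 libraries and no overlap between groups (immunoglobulin segments left out), up to 8 called members of each list by p with set reference members, the TCL1 family, tested genes within 500 kb of Fam168a, genes called with a direct unadjusted p under 0.001, and the 10 most variable genes among the Eµ-MTCP1 mice with a mean of at least 50 CPM. Results for some genes and 1 gene list are not reported here.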

Additional observations from a re-analysis of the deposited data

Results flagged for a closer look

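Of the 4 genes that passed the direct edgeR test between the 2 transgenic models, 3 are given here and the other, Neto2, in the report. Human MTCP1 was higher in Eµ-MTCP1 than in Eµ-TCL1 mice by 12.30 on the log2 scale, and human TCL1A had a log2 fold change of -11.28, so that each model expressed its own transgene. Arhgef17 differed by 8.46 on the log2 scale and is a mouse gene that lies 28.1 kb from Fam168a, in which the transgene is inserted. The part of the insertion in its expression was not tested.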

How the results depend on the processing

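No paired analysis was possible because the labels give mouse identifiers and no replicate numbers that are shared between groups. DESeq2 called 1646 genes against wildtype, 933 higher and 713 lower, and library-size scaling alone gave 391 higher and 731 lower. A fit that excluded the immunoglobulin segments had 283 lower genes. Leaving out each mouse gave between 525 and 943 calls, between 272 and 528 higher and between 253 and 425 lower, with the fewest without Z2754. Between the 2 transgenic models DESeq2 called 71 genes, no expression filter 10, the standard reference 7, and leaving out each mouse between 4 and 7 (7 without Eµ-TCL1 mouse C1594). Near Fam168a the standard reference called 8 genes. The shift of chromosome 15 over other autosomes was 0.56 in the standard reference, 0.57 in the deposited gene counts, 0.58 over genes of at least 50 CPM, and between 0.57 and 0.65 when each mouse was left out. Lyst turned from -1.08 to 1.12 with transcript length offsets. The fewer calls on leaving out a mouse come with fewer samples, and the cause of the other changes was not tested. Of 166 named genes called, 85 were called in every alternative in which they were tested and 81 were lost in at least 1, of them 24 with library-size scaling, 61 without Z2755, 69 without Z2754 and 56 without Z2551. Genes near the floor of 3 reads, between 0.373 and 0.465 CPM, have no exact fold.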

Other observations

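Some genes varied far more among the 3 Eµ-MTCP1 leukemias than genes in general, whose median SD of log2 CPM was 0.25. Plk2, a stress-induced kinase, stood at 3.30 CPM in Z2641, 838 in Z2606 and 53.8 in Z2551, against 114, 114 and 146 CPM in wildtype mice. Tppp3, a tubulin-binding protein, was at 0.826, 228 and 15.1 CPM, and Tubb6, a beta tubulin, at 11.9, 388 and 64.3 CPM. Krt8 was also highest in Z2606, so that this leukemia had the highest level of all 4 genes. Plk2, Tppp3 and Tubb6 were not called against wildtype, with edgeR adjusted p of 0.574, 0.244 and 0.115.

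Granule genes of neutrophils made up the rest of the most variable genes. Mpo stood at 937 CPM in Z2641 and 2320 CPM in wildtype mouse Z2755, against at most 133 CPM in the other 4 mice of the 2 groups. Elane, Prtn3, Ngp, Lcn2 and S100a8 were highest in the same 2 mice. A single Eµ-MTCP1 mouse, Z2641, had 136 reads of the T-cell gene Cd3g (22.5 CPM, against at most 1.73 CPM in the other 5 mice), while Cd3e had 0 to 1 reads in the Eµ-MTCP1 mice.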
